A study of Canis lupus with 24 samples.

Results

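Adherent K9TCC cells transfected with a negative control siRNA and harvested after 48 h were compared with adherent K9TCC cells that received DMSO and were harvested after 24 h. The comparison used 6 of the 24 arrays in the series, 3 per group, selected by sample title and by no measured value, and covered 16295 genes. K9TCC is a canine bladder transitional cell carcinoma line. Both groups are controls: the negative siRNA accompanied a COX-2 siRNA, and DMSO was the 0 µM dose of mavacoxib, a selective COX-2 inhibitor used in dogs.

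The adherent negative siRNA cells and the adherent DMSO cells were grown in serum-containing medium. The transfected cells were seeded the day before and received siRNA with Lipofectamine RNAiMAX, a lipid carrier, by forward transfection. Further groups appear beside them in 2 pairs. Sphere negative siRNA cells (48 h) and sphere DMSO cells (24 h) came from the same line passaged as spheres in serum-free medium with EGF and bFGF. Adherent COX-2 siRNA cells (48 h) and adherent mavacoxib cells (50 µM, 24 h) form the other transfected and untransfected pair. For siRNA treatment, spheres too were plated in attached culture beforehand, per the labels. Every group is the same cell line, and the sequence and amount of the negative siRNA are not given in the labels. Transfection, DMSO and the time of harvest differed together, so their parts in any difference cannot be told apart, and a batch shared by the arrays of a group was not tested. Arrays with carrier alone, or with DMSO at 48 h, were not analysed here. Whether replicate arrays stand for separate cultures is not stated in the labels, so each p-value reflects array-to-array spread that may be technical only, and 3 arrays a group limit the precision.

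A negative control siRNA is a short RNA duplex designed to match no transcript of the cell. Such duplexes enter the RNA interference machinery as any siRNA does, and double-stranded RNA and cationic lipids can each engage innate sensors and stress pathways. Cultured epithelial cells also alter their growth, nutrient and contact state between 1 day and the next. COX-2, encoded by PTGS2, makes prostaglandin H2 from arachidonic acid. It is often abundant in canine bladder carcinoma.

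Values are log2 signals as deposited, and every difference below is negative siRNA minus DMSO on that scale unless another pair is named, so that 1 is a 2-fold change. The median of all deposited values was 4.82, and signals under it may be background, since no detection calls were used here. Correlations between arrays were 0.991 to 0.993 within negative siRNA, 0.991 to 0.994 within DMSO and 0.985 to 0.990 between them. Of 16 urothelial carcinoma markers measured, 13 lay above 4.82 on all 6 arrays, among them the uroplakins UPK1A, UPK1B, UPK2 and UPK3A, keratins KRT7, KRT18 and KRT19, and the transcription factor GATA3, while the basal keratin KRT5 lay below it on all 6. All 6 leukocyte, 4 endothelial and 3 muscle markers lay below it on all 6 arrays. Of 6 fibroblast markers 4 did, and the receptor PDGFRA lay at 9.10 to 9.68. In bulk RNA, fewer cells of a kind and less RNA per cell cannot be told apart.

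With negative siRNA, 2257 genes (13.9% of those tested) passed limma's adjusted p of 0.05. Of these, 1424 were higher (8.74% of all genes) and 833 lower (5.11%). Counts of listed genes below are to be read against these shares. The differences were mostly small: the median size among the genes that passed was 0.56, and 145 genes, 58 higher and 87 lower, differed at least 2-fold. At an unadjusted p under 0.05 the count was 4430. The median difference over all genes was 0.07. The 6 arrays did not overlap for 2222 of the 2257 genes, against 21.8% of all genes tested lying higher without overlap and 13.6% lower. For 203 of them both group means lay under 4.82. The share of higher genes, 63.1%, was 52.4% after quantile normalization. Leaving out any 1 of the 6 arrays lowered the count, to 1427 to 1835, in fits that hold fewer arrays. The lowest counts were 1427 without DMSO replicate 2, 1435 without negative siRNA replicate 2 and 1444 without negative siRNA replicate 3.

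**Figure D1:**
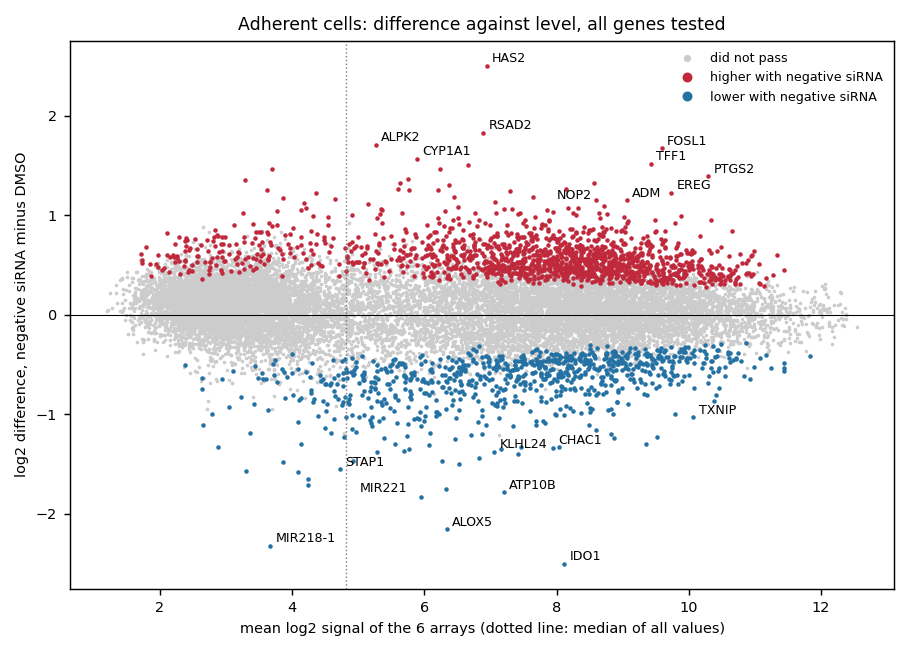
Difference between negative siRNA and DMSO (vertical, log2) against the mean log2 signal of the 6 adherent arrays (horizontal), 1 point per gene. Red points are the 1424 genes that were higher and blue points the 833 that were lower at limma's adjusted p of 0.05, and the dotted line marks the median of all values, 4.82. HAS2 at 2.50 and IDO1 at -2.50 lie farthest from 0.

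PTGS2, the transcript that the companion siRNA was designed against, was itself higher with negative siRNA. Its signals were 11.06, 10.89 and 11.02 with negative siRNA, against 9.59, 9.70 and 9.50 with DMSO, a difference of 1.39 ± 0.13 (SE, n = 3 each, limma's adjusted p 9.07e-07). The groups did not overlap. In the arrays labelled COX-2 siRNA it was also high, at 11.27, 11.50 and 11.20, against 9.15, 9.59 and 9.70 with mavacoxib. The arrays labelled COX-2 siRNA thus did not show a lower PTGS2 than the negative siRNA arrays, and that label is used here only as a name.

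Of 23 measured genes of the prostaglandin pathway, 3 were higher, none was lower and 20 did not pass, with a median difference of 0.19 against 0.07 for all genes. PTGER4, an EP receptor for prostaglandin E2 that raises cyclic AMP, was 5.81, 6.17 and 6.42 with negative siRNA against 5.36, 5.10 and 5.45 with DMSO, a rise of 0.83 ± 0.17 (limma's adjusted p 0.00229). PTGDR, a prostaglandin D2 receptor, rose by 0.61 ± 0.18 but stayed under 4.82 on every array, and it no longer passed in 5 of 14 alternatives. Synthesis downstream of COX-2 did not pass: PTGES, the inducible prostaglandin E synthase, was 9.01, 9.13 and 9.20 against 9.05, 9.20 and 9.26 (difference -0.06). PTGES2 differed by 0.39 and PTGES3 by 0.12. Upstream, PLA2G4A, the phospholipase that releases arachidonic acid, differed by -0.20 (limma's adjusted p 0.282). PTGS1, encoding COX-1, lay under 4.82 on all arrays, at 3.32, 3.62 and 3.96 against 3.29, 3.14 and 3.53. HPGD, which inactivates prostaglandins, and the transporter SLCO2A1 also lay under it. The exporter ABCC4, at 9.23, 9.64 and 9.29 against 8.99, 8.95 and 9.12, and the reductase PTGR1, with a difference of -0.24, did not pass. TBXA2R, the thromboxane receptor, had the lowest difference of the list, -0.50 (limma's adjusted p 0.0633). The remaining members, PTGDS, HPGDS, PTGIS, TBXAS1, AKR1C3, PTGER1, PTGER2, PTGFR, PTGIR and PTGR2, differed by -0.24 to 0.44 and did not pass.

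The other branch of arachidonic acid metabolism held one of the steepest falls. ALOX5, or 5-lipoxygenase, which makes the leukotriene precursor, was 5.11, 5.24 and 5.43 with negative siRNA against 7.27, 7.52 and 7.46 with DMSO, and fell by 2.16 ± 0.22 on the log2 scale (limma's adjusted p 2.44e-06). The groups did not overlap, as the choice of the largest falls required. None of the 6 other lipoxygenase and leukotriene genes measured passed: LTA4H, which makes leukotriene B4, differed by -0.04 and LTC4S by -0.23, and ALOX12, ALOX12B, ALOX15 and ALOXE3 by -0.16 to 0.54. ALOX12, ALOX12B, ALOX15 and ALOXE3 lay under 4.82 on all 6 arrays, where a fall may not be measurable. This list was chosen after values were seen. In the pair of COX-2 siRNA and mavacoxib ALOX5 was 5.32, 5.28 and 5.84 against 7.33, 7.38 and 6.95.

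**Figure D2:**
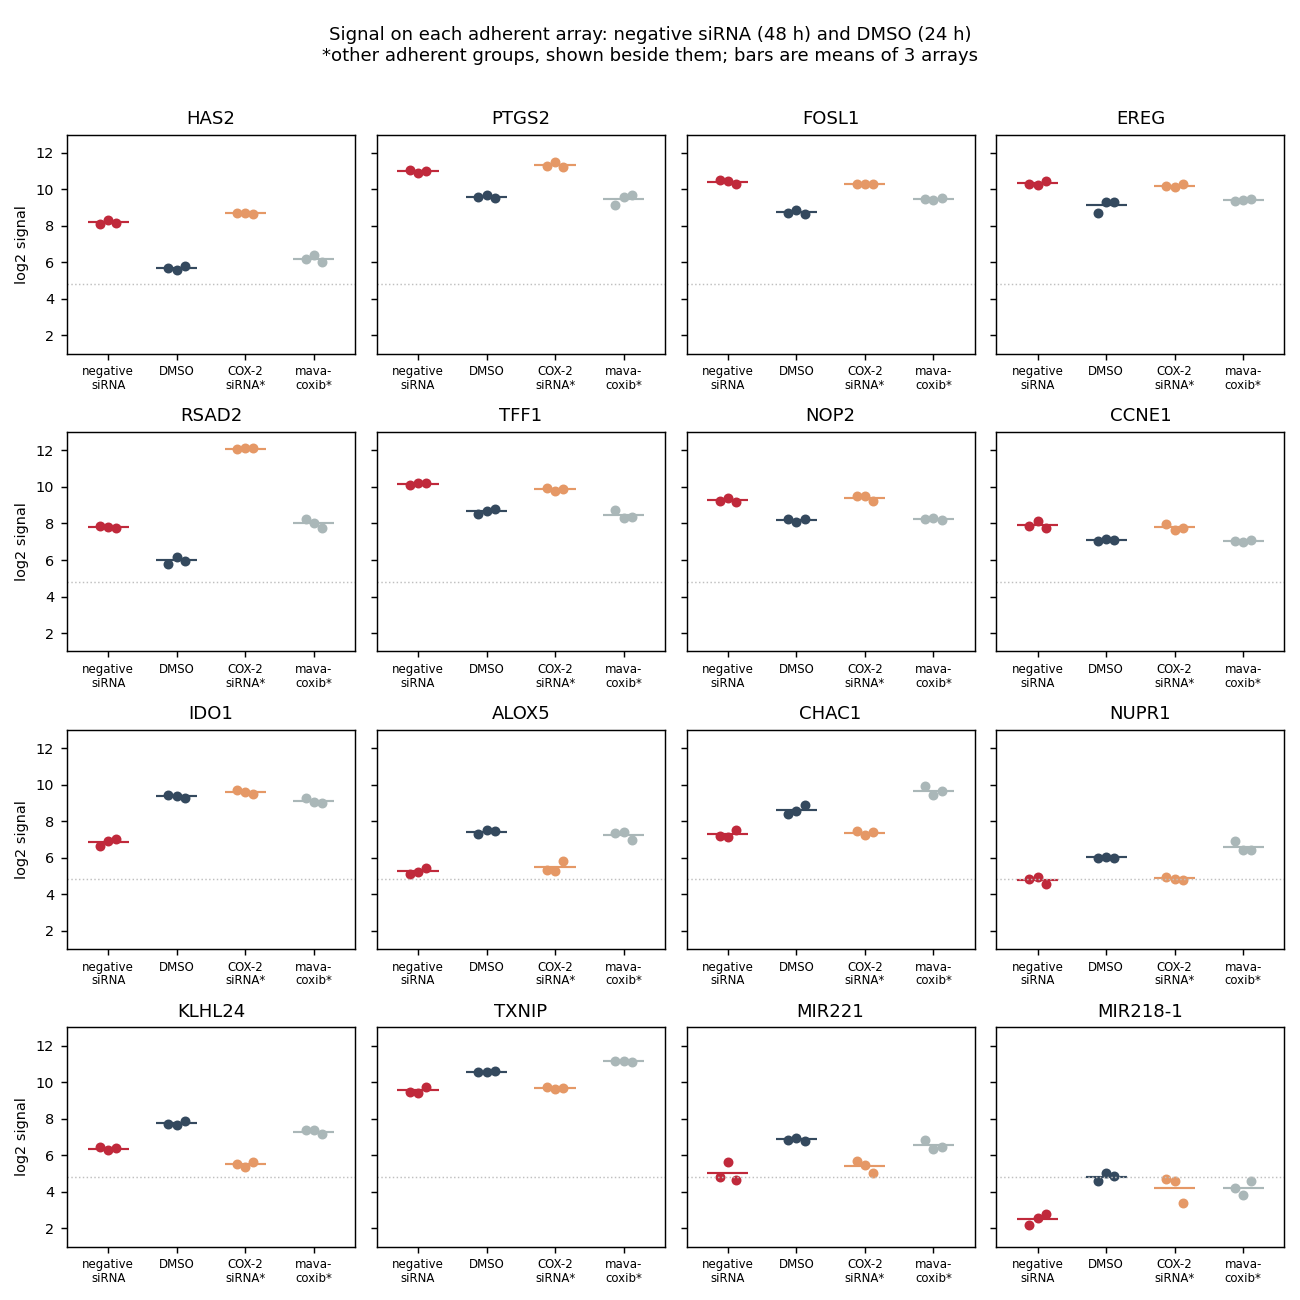
Log2 signal on each array for 16 genes, with 3 points per group and a bar at their mean: negative siRNA left of DMSO, and, for orientation, arrays labelled COX-2 siRNA left of mavacoxib. The dotted line is the median of all values, 4.82. HAS2, PTGS2 and FOSL1 are high in both transfected groups, whereas IDO1 is low only in negative siRNA.

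The largest rise was that of HAS2, which extrudes hyaluronan, a large sugar polymer of the pericellular coat. HAS2 was 8.10, 8.34 and 8.14 with negative siRNA against 5.67, 5.58 and 5.82 with DMSO, a difference of 2.50 ± 0.13 (limma's adjusted p 1.14e-10). All 3 negative siRNA arrays stood above every DMSO array, as the choice of the largest rises required. Of 10 genes of hyaluronan synthesis, binding and breakdown, HAS2 and the hyaluronidase HYAL3 (0.54 ± 0.13) were higher and none was lower, against 8.74% higher among all genes. This list was chosen after values were seen, so the place of HAS2 in the count was fixed in advance. HAS1 and HAS3, the other synthases, differed by -0.11 and 0.31, and the receptor CD44, at 11.28, 11.24 and 11.23 against 11.19, 11.10 and 11.12, by 0.11, and none of these passed.

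Growth factor ligands and the AP-1 factor FOSL1 rose. FOSL1, which encodes FRA1, was 10.52, 10.45 and 10.31 with negative siRNA against 8.71, 8.88 and 8.67 with DMSO (1.67 ± 0.14, limma's adjusted p 2.54e-07). EREG, encoding epiregulin, a ligand of the EGF receptor, was 10.30, 10.24 and 10.48 against 8.72, 9.33 and 9.30, a rise of 1.22 ± 0.15. Neither gene's groups overlapped, which for FOSL1 the choice of the largest rises required. AREG and HBEGF, encoding amphiregulin and heparin-binding EGF, rose by 1.06 ± 0.23 and 0.80 ± 0.18, and NRG1, encoding the ERBB3 and ERBB4 ligand neuregulin, by 0.54 ± 0.13. The ERK feedback inhibitor SPRY4 rose by 0.37 and the receptor ERBB2 fell by 0.48. Of 26 genes of EGF receptor, FGF receptor and ERK feedback signalling these 5 were higher and 1 was lower, and the median difference was 0.01, under the 0.07 of all genes. EGFR itself differed by -0.28 (limma's adjusted p 0.181).

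FOSL1 and AREG are also listed as YAP targets, where they and FJX1 were the 3 of 20 that were higher. Among all genes 8.74% were higher and 5.11% lower. The other YAP targets that passed fell: ANKRD1 (-0.80), AMOTL2 (-0.54), PTPN14 (-0.50), F3, TEAD1 and CRIM1. CCN1, a matricellular YAP target, differed by -0.06. Without DMSO replicate 1, 2 YAP targets were called lower. Among 22 immediate early genes FOSL1 and MYC rose, and FOSB (-0.91), EGR3 (-0.70) and FOS (-0.53) fell, while none was called lower without DMSO replicate 3. EGR1 was 11.39, 11.37 and 11.37 against 10.87, 11.37 and 11.46, with overlapping groups. Other steep rises were CYP1A1 (1.57 ± 0.17), a monooxygenase induced by the aryl hydrocarbon receptor and 1 of 13 genes of that list that rose, TFF1 (1.52 ± 0.17), a secreted trefoil peptide of mucosae, and ADM (1.15 ± 0.10), encoding the vasoactive peptide adrenomedullin. CYP2S1 was the gene of the aryl hydrocarbon list that fell, by 1.18, a call lost without negative siRNA replicate 2. ALPK2 (1.71), ANKRD13B (1.50), MLLT11 (1.36), the kinase NLK (1.26), CYB5D1 (1.25), ODAPH (1.30), LOC102156144 (1.47) and LOC100686073 (1.33) were other members of the 20 largest rises. SERPINB2 (1.46), HCN4 (1.35) and MMP1 (1.26) lay under 4.82 on every array of both groups.

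Genes for making ribosomes were higher as a group. Of 26 ribosome biogenesis and Myc target genes, 16 were higher and none lower, against 8.74% higher among all genes, 24 differences were above 0 and the median was 0.49. NOP2, an rRNA methyltransferase of the nucleolus, was 9.21, 9.39 and 9.19 with negative siRNA against 8.23, 8.06 and 8.22 with DMSO, a rise of 1.09 ± 0.13 (limma's adjusted p 1.16e-05). POLR1A, the largest subunit of RNA polymerase I, rose by 1.03 ± 0.15, POLR1C, a subunit shared with RNA polymerase III, by 0.76 ± 0.12, and NCL, encoding nucleolin, by 0.68 ± 0.11. CAD, which starts pyrimidine synthesis, rose by 0.85 ± 0.12. MYC, the transcription factor that drives many of these genes, was 8.44 to 8.60 against 7.93 to 8.01, a rise of 0.55 ± 0.11 (limma's adjusted p 0.0026). For NOP2 and MYC every negative siRNA array lay above every DMSO array. With any 1 array left out, 12 to 14 of the 26 were called higher. Chosen outside that list after their values were seen, GRWD1 (1.27), FTSJ3 (1.13), NOL6 (1.06), NOC4L (1.03), TCOF1 (0.98), BYSL (0.98) and RRN3 (0.95), which act in ribosome assembly or in transcription of ribosomal RNA, rose too, as did CTPS1 and IMPDH2 (0.76 and 0.79) of nucleotide synthesis. ODC1, which starts polyamine synthesis and is a Myc target, rose by 0.79 ± 0.10.

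The start of the cell cycle and its end did not move together. Of 36 genes of G1/S and DNA replication, 16 were higher and none lower, with a median of 0.36. Among all genes 8.74% were higher and 5.11% lower. CCNE1, the cyclin of S phase entry, was 7.84, 8.11 and 7.74 with negative siRNA against 7.04, 7.17 and 7.12 with DMSO (0.79 ± 0.12, limma's adjusted p 0.000213). UHRF1, which keeps DNA methylation through replication, rose by 0.88 ± 0.15, MCM2 of the replicative helicase by 0.58 ± 0.12, and the phosphatase CDC25A, picked after its value was seen, by 1.03 ± 0.14. Of 34 mitosis genes 1 was higher and 5 were lower, with a median of -0.14. NUF2, of the kinetochore, was 8.29, 8.35 and 8.34 against 9.06, 9.09 and 8.91, and fell by 0.69 ± 0.09 (limma's adjusted p 5.3e-05). CENPF (-0.59), BUB1B (-0.50), CDC25B (-0.47) and TOP2A (-0.32) fell and BIRC5 (0.37) rose, while the proliferation marker MKI67, at 11.28, 11.18 and 11.14 against 11.45, 11.44 and 11.56, did not pass. CDKN1A, the p53 target p21 that restrains cyclin-dependent kinases, rose by 0.61 ± 0.11 and CDKN1B, encoding p27, fell by 0.55 ± 0.14. Quantile normalization raised the mitosis falls to 8. Of 7 histone genes H2AX and H1-2 rose (0.77 each), the call of H2AX being lost without negative siRNA replicate 3 or DMSO replicate 1.

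**Figure D3:**
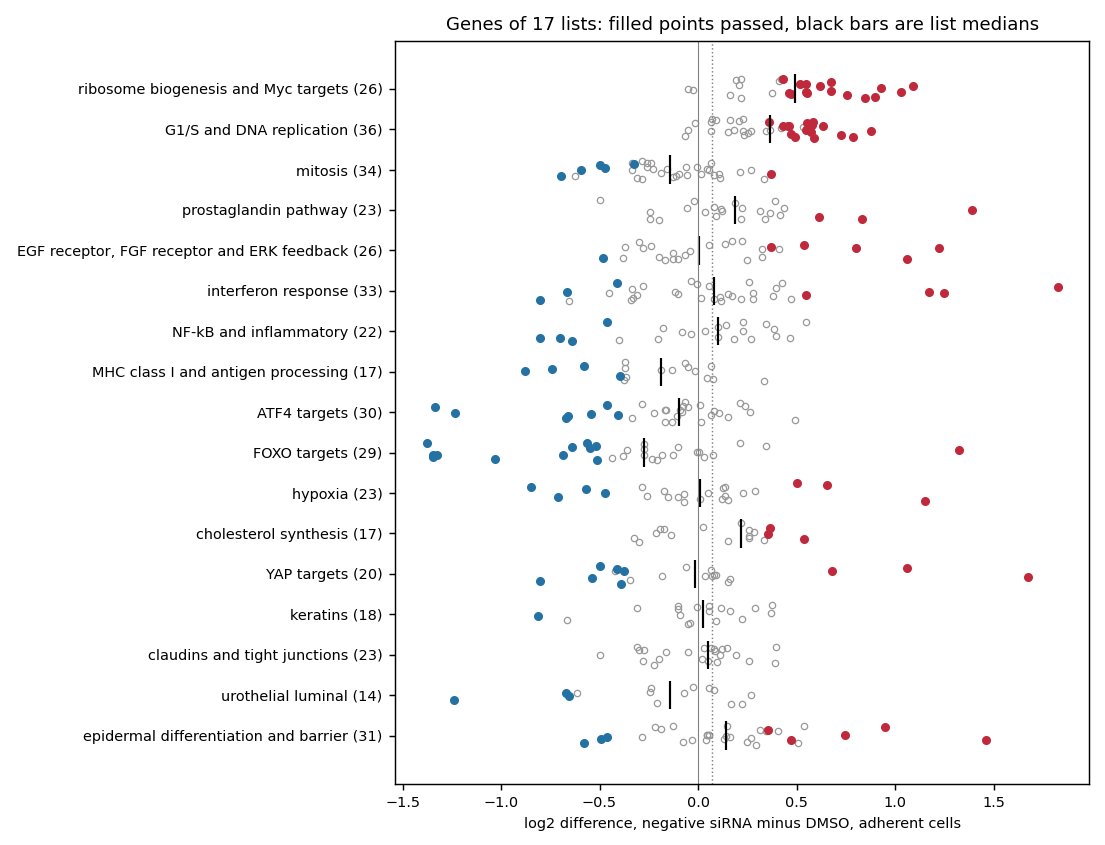
Log2 differences, negative siRNA minus DMSO, of every measured gene in 17 lists (number measured in parentheses). Filled points passed limma's adjusted p of 0.05 (red higher, blue lower), black bars are list medians, and the dotted line is the median of all genes, 0.07. Ribosome biogenesis and replication genes lie to the right, with 16 genes called higher in each, and 11 of 29 FOXO targets are called lower. Among all genes 8.74% are called higher and 5.11% lower.

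The largest fall was that of IDO1, the enzyme that opens the tryptophan ring to start kynurenine synthesis and an interferon gamma target in other settings. IDO1 was 6.65, 6.92 and 7.02 with negative siRNA against 9.45, 9.38 and 9.26 with DMSO, and fell by 2.50 ± 0.15 on the log2 scale (limma's adjusted p 5.54e-10). Its levels were 9.69, 9.61 and 9.48 in arrays labelled COX-2 siRNA and 9.27, 9.07 and 8.98 with mavacoxib, so the 3 negative siRNA arrays were the low ones among the 12 adherent arrays. A list of 8 genes of tryptophan use, chosen after values were seen, had 2 lower, IDO1 and WARS1 (-0.46), against 5.11% lower among all genes. WARS1, the tryptophanyl-tRNA synthetase, is not a step from tryptophan to kynurenine. IDO2, TDO2, KMO, KYNU, HAAO and AADAT lay under 4.82 on all 6 arrays, where a fall may not be measurable. The rest of the 20 largest falls outside microRNA genes were the lipid flippase ATP10B (-1.78), LOC475605 (-1.75), OR6C4B (-1.58), the signalling adaptor STAP1 (-1.55), the adhesion receptor ADGRF1 (-1.50), VMO1 (-1.47), RSRP1 (-1.47), LOC486353 (-1.44), LRRC4B (-1.40), KLHL24 (-1.38) and the actin filament cap TMOD1 (-1.37).

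Targets of ATF4, the factor of the amino acid and integrated stress responses, fell where they passed. Of 30, none was higher and 7 were lower, against 5.11% lower among all genes, and the median was -0.10. CHAC1, which degrades glutathione, was 7.19, 7.13 and 7.50 with negative siRNA against 8.37, 8.55 and 8.91 with DMSO (-1.34 ± 0.16, limma's adjusted p 1.17e-05). NUPR1, a stress-induced chromatin protein, was 4.54 to 4.95 against 5.99 to 6.04 (-1.23 ± 0.13), and ASNS, asparagine synthetase, fell by 0.66 ± 0.09. The groups overlapped for none of these. DDIT4 (-0.67), CARS1 (-0.54), WARS1 and STC2 (-0.41) fell too. ATF4 itself, DDIT3 and TRIB3 differed by -0.08, 0.02 and 0.26 and did not pass. The peptide transporters SLC15A1 (-1.01 ± 0.16) and SLC15A2 (-0.96 ± 0.19) fell, the lower 2 of 16 genes of amino acid and polyamine transport and mTORC1, where ODC1 was the only rise.

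FOXO factors are held out of the nucleus by insulin and growth factor signalling and drive genes of quiescence and starvation. A list of 29 such genes was chosen after values were seen and so gives no independent evidence. 11 were lower and 1, PDK4, was higher, against 5.11% lower and 8.74% higher among all genes, with a median of -0.28. PIK3IP1, an inhibitor of PI3 kinase, was 5.16, 4.79 and 5.32 with negative siRNA against 6.35, 6.53 and 6.43 with DMSO (-1.35 ± 0.16, limma's adjusted p 1.39e-05). FBXO32, the ubiquitin ligase atrogin-1, fell by 1.35 ± 0.17, KLHL24 by 1.38 ± 0.17, and TP53INP1, a p53 target as well, by 1.33 ± 0.14. TXNIP, which curbs glucose uptake, was 9.49, 9.41 and 9.76 against 10.54, 10.57 and 10.64 (-1.03 ± 0.10). FOXO3 fell by 0.64 ± 0.10, and YPEL3, GABARAPL1, CDKN1B, BCL6 and CCNG2 by 0.51 to 0.68. FOXO1 and FOXO4 differed by 0.03 and 0.01. PDK4, which shuts pyruvate dehydrogenase, ran the other way at 6.12, 6.44 and 6.34 against 4.69, 5.01 and 5.23 (1.32 ± 0.22). ARRDC4, a relative of TXNIP that answers the same glucose sensor, also rose, by 0.94 ± 0.13.

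Interferon genes showed no shared direction. Of 33, 4 were higher and 3 lower, against 8.74% and 5.11% of all genes, with a median of 0.08. RSAD2, the antiviral enzyme viperin, was 7.86, 7.83 and 7.73 with negative siRNA against 5.80, 6.19 and 5.95 with DMSO (1.83 ± 0.14, limma's adjusted p 7.05e-08). IFI6, an antiviral membrane protein, was 6.66, 6.87 and 6.95 against 5.34, 5.74 and 5.65 (1.25 ± 0.16). The groups did not overlap for either gene, as the choice of the largest rises required. The chemokine CCL5 rose by 1.17 ± 0.20, at 4.85, 3.99 and 4.51 against 3.25, 3.62 and 2.97, with 5 of 6 arrays under 4.82, and IFIT5 rose by 0.55. IRF1, a transcription factor of the response, was 8.09, 8.04 and 8.14 against 8.96, 8.86 and 8.85 (-0.80 ± 0.18, limma's adjusted p 0.00418), and the RNA-binding proteins DHX58 (-0.66) and EIF2AK2 (-0.41) fell, although 1 gene of the list was called lower without negative siRNA replicate 2. MX1, ISG15, CXCL10 and the RNA sensors IFIH1 and DDX58 differed by 0.08 to 0.47 and did not pass, and IFNB1 and IFNL1 lay under 4.82 on all 6 arrays. For scale, 32 of the 33 were higher in COX-2 siRNA against mavacoxib, where 9.49% of all genes were, with a median of 3.65 on the same scale. In that pair RSAD2 was 12.09, 12.11 and 12.12 against 8.27, 8.02 and 7.75. Of 21 genes of double-stranded RNA and nucleic acid sensing, 1 rose, the adaptor MYD88 (0.40), and DHX58 and EIF2AK2 were the 2 that fell. Without negative siRNA replicate 2 no gene of that list was called in either direction.

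The few inflammatory and MHC class I genes that passed were lower. Among all genes 8.74% were higher and 5.11% lower. Of 22 NF-kB and inflammatory genes none was higher and 4 were lower. Yet 13 of the 22 differences were above 0, with a median of 0.10 against 0.07 for all genes. NFKBIA, the inhibitor IkB alpha that NF-kB induces, was 7.43, 7.67 and 7.83 with negative siRNA against 8.27, 8.41 and 8.66 with DMSO (-0.80 ± 0.13, limma's adjusted p 0.000292). TNF (-0.70), CSF3 (-0.64) and RELB (-0.46) were the other 3, and without negative siRNA replicate 1 the list had 1 gene called lower. TNF lost its call in 5 of 15 alternatives, CSF3 in 5 of 14 and RELB in 6 of 15, while NFKBIA kept its call. CXCL8, at 9.52, 9.76 and 9.56 against 9.31, 9.21 and 9.13, did not pass. Of 17 MHC class I and antigen processing genes 4 were lower and none higher, with a median of -0.19: the peptide-trimming ERAP1 (-0.88 ± 0.16) and ERAP2 (-0.74 ± 0.19), TAPBPL (-0.58 ± 0.13) and the peptide pump TAP2 (-0.40 ± 0.11). B2M differed by -0.05. Of 12 MHC class II genes RFXANK rose (0.46) and DLA-DQA1 fell (-0.53), neither of which was called without negative siRNA replicate 2, and of 13 complement genes CD59 fell (-0.79). CD59 was 3.59, 3.95 and 4.12 with negative siRNA against 4.60, 4.85 and 4.58 with DMSO, mostly under 4.82, where signal may be background.

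Of 13 genes of the RNA interference machinery 1 rose and 2 fell, against 8.74% higher and 5.11% lower among all genes. DICER1, the nuclease that makes small RNAs, averaged 9.04 with negative siRNA and 8.63 with DMSO (n = 3 each), a rise of 0.41 ± 0.10 with no overlap. AGO4, an Argonaute, was 7.37, 7.46 and 7.64 against 8.52, 8.38 and 8.58 and fell by 1.00 ± 0.12 (limma's adjusted p 2.21e-05), and PRKRA fell by 0.50. The call of PRKRA was lost without negative siRNA replicate 3, DMSO replicate 1 or DMSO replicate 2. AGO2, the slicing Argonaute that siRNA uses, was 8.04, 7.93 and 7.92 against 8.38, 8.13 and 8.33 and did not pass (-0.32, limma's adjusted p 0.139).

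Features placed at microRNA genes were among the largest falls, although the share of them that fell was near that of all genes. On this array they read RNA from the gene, and do not by themselves give the mature microRNA. Of 284 such features 19 (6.69%) were lower and 11 (3.87%) higher, against 5.11% and 8.74% of all genes, and 7 of the 20 largest falls were among them. MIR221 was 4.80, 5.65 and 4.65 with negative siRNA against 6.86, 6.95 and 6.79 with DMSO (-1.83 ± 0.29, limma's adjusted p 0.000234). Its genomic neighbour in mammals, MIR222, fell by 1.65 ± 0.24, to 3.21, 3.43 and 3.62 against 5.09, 5.17 and 4.95. MIR21, a microRNA abundant in many carcinomas, was 7.94, 7.97 and 8.17 against 9.11, 9.11 and 9.32 (-1.15 ± 0.17, limma's adjusted p 8.75e-05). Neither MIR221, MIR222 nor MIR21 overlapped between groups, which for MIR221 and MIR222 the choice of the largest falls required. MIR218-1 fell by 2.32 ± 0.28. With negative siRNA, MIR218-1, MIR222 and MIR429 lay under 4.82, where signal may be background. With DMSO, MIR222 lay above it on all 3 arrays and MIR218-1 on 2 of 3. MIR99A-2 (-1.57) and MIRLET7A-2 (-1.48) lay under it on all 6 arrays. Of the 5 members of the miR-200 family, which restrain ZEB1 and ZEB2 and keep epithelial identity, 4 were lower: MIR429 (-1.71 ± 0.36), MIR200A (-1.38 ± 0.23), MIR200C (-1.10 ± 0.35) and MIR200B (-0.72 ± 0.23). MIR141 differed by -0.47 and did not pass. The family was chosen after values were seen, with MIR429 and MIR200A among the 20 largest falls. MIR155 (1.04), MIR302C (0.90) and MIR25 (0.81) were among the 11 rises.

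Markers of epithelial type shifted at a few genes, where 8.74% of all genes were higher and 5.11% lower. Of 14 luminal urothelial genes 3 fell and none rose: TMPRSS2, a surface protease, was 8.24, 8.43 and 8.07 against 9.41, 9.50 and 9.55 (-1.24 ± 0.16, limma's adjusted p 3.17e-05), and UPK1B fell by 0.67 ± 0.14 and the transcription factor ELF3 by 0.65 ± 0.15. UPK1A, UPK2 and UPK3A did not pass. Averaged over the 16 urothelial markers, signal was 9.31 to 9.33 on negative siRNA arrays and 9.40 to 9.52 on DMSO arrays. Of 18 keratins KRT8 fell (-0.81), a call lost without negative siRNA replicate 2 or DMSO replicate 2. Of 21 epithelial-mesenchymal genes SNAI2, encoding the repressor Slug, was 9.29, 9.26 and 9.26 against 8.31, 8.29 and 8.16 (1.02 ± 0.13, limma's adjusted p 3.99e-05), VIM, encoding vimentin, rose by 0.95 ± 0.10, and LOXL2, which crosslinks collagen, fell by 0.70 ± 0.16. CDH1, encoding E-cadherin, was 11.79, 11.61 and 11.71 against 12.01, 11.86 and 11.82 and did not pass, nor did any of 23 claudin and tight junction genes. Of 31 epidermal genes 5 rose, among them SERPINB2 and the envelope protein IVL (0.75 ± 0.14), and TGM1, PPL and EVPL fell, with 3 called higher without negative siRNA replicate 2. Of 22 stem cell genes TERT, BMI1, MYC and ITGA6 rose (0.98, 0.63, 0.55 and 0.51) and none fell. Of 12 fibroblast genes PDGFRA fell (-0.49) and of 13 leukocyte genes CD79B rose (0.67, overlapping groups). None of 12 endothelial and muscle genes passed.

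Calls in metabolic, matrix and stress lists stand against 8.74% higher and 5.11% lower among all genes. Of 23 hypoxia genes ADM, HK2 and NDRG1 were higher and PDK1 (-0.85), BNIP3L (-0.71), KDM3A (-0.57) and LOX (-0.47) lower, with a median of 0.01. Without DMSO replicate 1 the list had 1 gene called higher, and without negative siRNA replicate 3 it had 2 called lower. In the same order of higher and lower, the counts were 3 and 0 of 17 cholesterol synthesis genes (MVD, CYP51A1 and DHCR7, 0.35 to 0.54; 1 to 2 higher with any 1 array left out, and 1 without negative siRNA replicate 3), 1 and 1 of 22 fatty acid and glycerolipid synthesis genes (ELOVL5 and LPIN1), and 3 and 0 of 19 genes of lipid droplets, fatty acid oxidation and PPAR response. The last were PDK4, the cholesterol exporter ABCA1 (1.00 ± 0.18) and FABP4 (0.61). They were 1 and 1 of 18 glycolysis genes (ARRDC4 and TXNIP) and 2 and 0 of 22 oxidative phosphorylation genes (CYCS and CYC1, 0.50 and 0.39). Of 26 lysosome and autophagy genes 4 fell (UVRAG, GABARAPL1, WIPI1 and NPC1), against 1 without negative siRNA replicate 1. Of 31 extracellular matrix and integrin genes 4 rose and 5 fell, among the falls perlecan, HSPG2 (-0.78 ± 0.13), and the integrin ITGAV (-0.58 ± 0.12). Of 22 matrix metalloproteinases and inhibitors MMP1 rose, and MMP11 (-0.91 ± 0.19), PLAU, encoding urokinase (-0.54 ± 0.11), and MMP15 (-0.49 ± 0.12) were among 4 falls. Of 24 endoplasmic reticulum chaperone genes MANF, CRELD2 and DNAJB11 rose (0.42 to 0.51) and HERPUD1 fell (-0.47), and of 17 heat shock genes CHORDC1, HSPE1 and HSF1 rose (0.33 to 0.51) and BAG3 fell (-0.55). Without negative siRNA replicate 2 no chaperone gene was called higher, and without negative siRNA replicate 3 no heat shock gene. Among 22 NRF2 targets OSGIN1 (0.82), HMOX1 (0.77) and PIR (0.50) rose and GCLC (-0.61), of glutathione synthesis, fell. Among 19 p53 targets CDKN1A, PLK2 (0.62) and AEN (0.59) rose and TP53INP1 fell. FST rose and SMAD3 and CDKN2B fell among 22 TGF-beta and BMP genes, JAG2 rose and AXIN2 and DLL4 fell among 27 Wnt and Notch genes, and BAK1 (0.31) was the only call among 21 cell death genes. No Wnt or Notch gene was called lower without DMSO replicate 2, and no cell death gene was called higher without negative siRNA replicate 2. The call of CDKN2B was lost without negative siRNA replicate 2 or 3 or DMSO replicate 3.

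The arrays labelled COX-2 siRNA and mavacoxib are the other adherent pair that differ by transfection and by 48 h against 24 h, and share no array with the comparison above. They also differ by siRNA and by drug, so the values stand side by side as a description. In that pair 3552 genes (21.8%) passed, 1546 higher (9.49%) and 2006 lower (12.3%). Of the 1424 genes higher with negative siRNA, 1057 (74.2%) had the same sign there, where 50.9% of all genes had that sign, and 480 were called higher too, 33.7% of the 1424 and 31.0% of the 1546. Of the 833 lower genes 661 (79.4%) had the same sign, where 48.9% of all genes had it, and 392 were called lower too, 47.1% of the 833 and 19.5% of the 2006. 66 and 54 genes were called in the opposite direction. HAS2 differed by 2.49 there, PTGS2 by 1.84, TFF1 by 1.41, NOP2 by 1.16 and FOSL1 by 0.85. ATP10B was 6.58, 6.38 and 5.97 with negative siRNA against 8.04, 8.03 and 8.21 with DMSO, and 5.27, 4.94 and 5.25 with COX-2 siRNA against 8.22, 8.08 and 7.99 with mavacoxib. Neither pair overlapped, which the choice of the largest falls required for the first. In the second, 17.9% of all genes lay higher and 20.4% lower without overlap. Among the list counts there, 12 of 26 ribosome biogenesis genes and 25 of 36 replication genes were higher, and 22 of 30 ATF4 targets and 18 of 29 FOXO targets lower.

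Several leading genes, chosen here from their values in that pair, were not called in the same direction there. IDO1 was called higher there (0.49, limma's adjusted p 0.0206). The feature for MIR218-1 was 2.18, 2.58 and 2.78 with negative siRNA and 4.57, 5.04 and 4.89 with DMSO, and 4.68, 4.61 and 3.38 in arrays labelled COX-2 siRNA against 4.21, 3.80 and 4.61 with mavacoxib. MIR222, MIR99A-2, MIRLET7A-2, OR6C4B and RSRP1 likewise differed there by -0.32 to 0.06 and did not pass. MIR21 differed there by 0.46 (limma's adjusted p 0.051). Among the rises, LOC102156144, SERPINB2, HCN4, HBEGF and CAD differed there by -0.37 to 0.06 without passing. The difference between the 2 pairs was not tested.

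In spheres, negative siRNA against DMSO gave 5758 genes (35.3%), 3091 higher (19.0%) and 2667 lower (16.4%), on arrays that the adherent comparison does not share. Since transfected spheres were first plated in attached culture, attachment may differ between the sphere groups too, and its part in the sphere and adherent minus sphere values cannot be told apart. Of the 1424 genes higher in adherent cells 834 were called higher in spheres (58.6% of these and 27.0% of the sphere genes), and of the 833 lower genes 480 were lower (57.6% and 18.0%). 74 and 65 genes were called the opposite way. The difference itself, tested in limma as adherent minus sphere, passed for 2779 genes (17.1%), 1513 with a more positive (9.29%) and 1266 with a more negative (7.77%) adherent difference. That balance depended on the settings: it was 1257 against 1367 with arrays shifted to one median, 1341 against 1356 with dim genes left out and 1238 against 1268 without sphere DMSO replicate 2. In spheres alone it was 2658 higher against 2983 lower without sphere DMSO replicate 3.

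PTGS2 ran in opposite directions in the culture forms. In spheres it averaged 10.31 with negative siRNA and 12.11 with DMSO, a difference of -1.80, and the adherent difference exceeded this by 3.19 ± 0.18 (limma's adjusted p 5.14e-11). HAS2, at 5.76 with negative siRNA and 6.10 with DMSO in spheres, had an adherent minus sphere value of 2.84, CYP1A1 of 4.40, IFI6 of 4.02 and RSAD2 of 2.56. Each of these values exceeded the gene's adherent rise, because its sphere difference was below 0. CYP1A1 differed by -2.83 in spheres, with means of 6.68 with negative siRNA and 9.52 with DMSO, against 1.57 in adherent cells. IDO1 and ALOX5 had sphere means of 2.49 to 3.41, under 4.82 in both sphere groups, where a fall may not be measurable. Prostaglandin genes differed in 7 of 23, all with the more positive adherent value, against 9.29% of all genes with that direction. These included PTGES, whose mean in spheres was 3.82 with negative siRNA and 6.45 with DMSO.

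**Figure D4:**
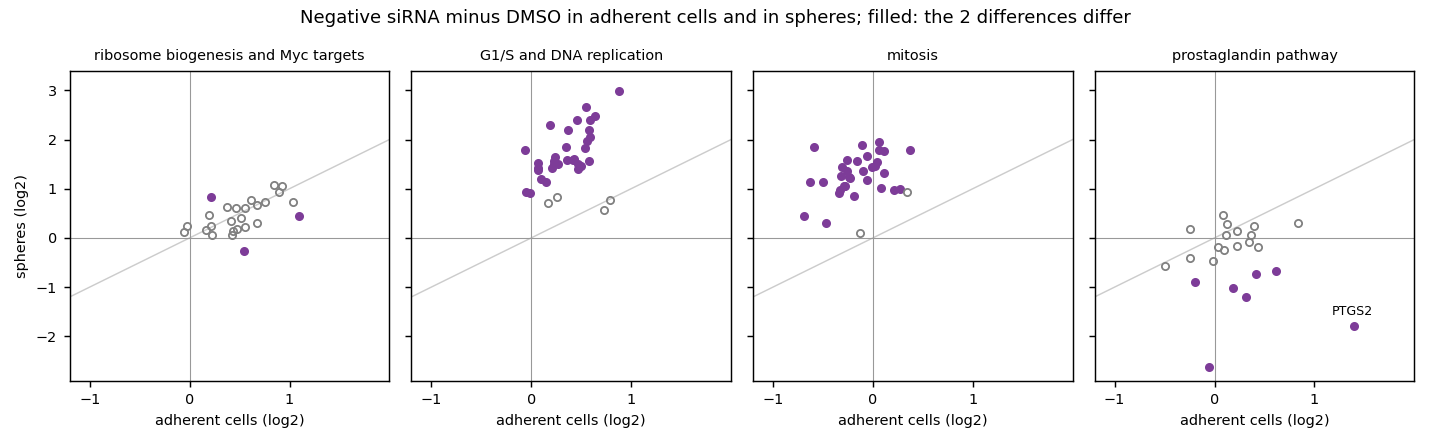
Log2 difference, negative siRNA minus DMSO, in adherent cells (horizontal) and in spheres (vertical) for the genes of 4 lists. Filled points are genes whose differences in the culture forms differed at limma's adjusted p of 0.05, and the grey diagonal marks equal differences. Replication and mitosis genes lie above the diagonal with 32 filled points each, ribosome biogenesis genes lie near it with 3 filled, and PTGS2 lies at the lower right. Over all genes 17.1% differed between the culture forms.

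Replication and mitosis genes had larger differences in spheres. For comparison, 19% of all genes were higher in spheres and 17.1% differed between the forms. The adherent value was the more positive for 9.29% of all genes and the more negative for 7.77%. All 36 replication genes were higher in spheres, with a median of 1.56, and 32 of them differed from the smaller adherent value, as did 32 of 34 mitosis genes, of which 33 were higher in spheres. UHRF1 averaged 9.36 with negative siRNA and 6.39 with DMSO in spheres, a difference of 2.98, and adherent minus sphere was -2.10 (limma's adjusted p 1.52e-07). Ribosome biogenesis genes, by contrast, had 15 of 26 higher in spheres and a median of 0.43, and 3 differed between the forms (NOP2 and MYC with the more positive adherent value). Small differences between the forms would mostly be missed: simulated ones of 0.5 were recovered for 3 of 67 genes. ATF4 targets differed in 12 of 30 and FOXO targets in 12 of 29, 10 of the FOXO targets with the more positive adherent value.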

How the data were processed

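RNA from 24 K9TCC samples was labelled with the Ambion WT Expression kit for Affymetrix Canine Gene 1.1 ST arrays, per the labels' protocols. The deposited table holds log2 values, which the authors made with Affymetrix Expression Console 1.1, per the submitters' processing notes. How they were summarised, normalized and filtered is not given in the sources used here. Of 27766 features, 16878 had 1 symbol in the platform annotation, 289 several and 10599 none. Genes with several features (521) were represented by the brightest, giving 16295 genes. Symbols are those of the annotation, and 14154 also occur in RefSeq for mCanLup2.hap1. No sequence is printed.

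Group means of all 8 groups were fitted over the 24 arrays with limma 3.58.1 in R 4.3.3, so that groups share 1 estimate of spread (16 residual degrees of freedom), and contrasts were tested across all genes, two-sided, with Benjamini-Hochberg adjustment at 0.05. The script was tested on simulated data. In the adherent contrast it recovered 25 of 67 genes changed by 0.5 on the log2 scale, 60 of 67 changed by 1 and 65 of 66 changed by 2. For adherent minus spheres it recovered 3 of 67 genes changed by 0.5 and 39 of 67 changed by 1. A small difference that did not pass may therefore have been missed. All 24 arrays entered the fit, and groups followed sample titles. Alternatives covered normalization, dim genes, choice of feature, arrays fitted, variance model, array weights, a replicate block and leaving out each array. Deviations of same-numbered adherent arrays correlated at 0.050, 0.049 and -0.091. Those of sphere arrays correlated at 0.069, 0.173 and 0.264. Not every pair exceeded 0.1, so the numbers were not used as pairs.

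Members and gene lists were chosen with earlier results of these data known. Named genes were PTGS2, the 20 largest rises and falls among genes that passed with arrays that did not overlap, up to 4 members per list with the smallest adjusted p, the 8 largest adherent minus sphere differences each way, prostaglandin genes and cell type markers. Others, and the lists for FOXO targets, hyaluronan, lipoxygenases, kynurenine, the miR-200 family and microRNA features, were chosen after their values were seen.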

Additional observations from a re-analysis of the deposited data

Results flagged for a closer look

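The difference itself, the negative siRNA minus DMSO value in adherent cells minus that in spheres, was tested in limma with adjustment over all genes, and 2779 genes passed. PTGS2 had a value of 3.19. The 8 largest positive values belonged to genes that were lower with negative siRNA in spheres: SLC6A12 (5.56), the chemokine CXCL14 (5.07), the calprotectin subunits S100A8 (5.06) and S100A9 (4.47), RASL11A (4.96), the chemokine CCL2 (4.64) and the epidermal keratins KRT1 (4.52) and KRT10 (4.44). In adherent cells these 8 genes differed by 0.04 to 0.76, and in spheres by -5.52 to -4.07. All of them but RASL11A lay under 4.82 on all 6 adherent arrays, where a fall may not be measurable, so their values rest on the sphere arrays. The 8 largest negative values were those of AMTN (-3.73), the immediate early factor EGR1 (-3.43), CFAP206 (-3.23), PRR11 (-2.83), PIMREG (-2.73), ESM1 (-2.68), PLPPR5 (-2.63) and MIR1838 (-2.55). Adherent differences of these 8 lay between -0.35 and 0.37, and sphere differences between 2.37 and 3.83. AMTN and PLPPR5 also lay under 4.82 on all 6 adherent arrays. Transfection and harvest time differ together in both culture forms, and in spheres attached plating before transfection may differ with them. These cannot be told apart.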

How the results depend on the processing

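With array weights the counts were 4337 genes in adherent cells (2257 without weights), 9185 in spheres (5758) and 5642 for adherent minus spheres (2779), and the cause was not tested. Leaving out each array gave 1427 to 1835 genes in adherent cells, with 1435 without negative siRNA replicate 2, 1444 without negative siRNA replicate 3 and 1427 without DMSO replicate 2. These fits hold fewer arrays. A replicate block gave 2057 genes, although the labels do not say whether the shared numbers mark pairs. The share of adherent calls that were higher was 52.4% after quantile normalization and 67.5% with arrays shifted to one median, against 63.1% as deposited. The balance of higher and lower calls turned for adherent minus spheres with arrays shifted to one median, with dim genes left out and without sphere DMSO replicate 2, and for spheres without sphere DMSO replicate 3. No called difference of a named gene changed sign. Of 156 named genes that passed in adherent cells, 43 lost the call on leaving out at least 1 array and 22 under at least 1 other alternative, and all 17 adherent minus sphere genes kept theirs. Dim signals, without detection calls, limit what is known of falls to background.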
